A study of Mus musculus with 12 samples.

Results

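The genes described here encode the subunits of the oxidative phosphorylation complexes that the nucleus contributes, together with their tissue isoforms and a few factors that share the family symbols. They were chosen by symbol alone (Nduf subunits of complex I, Sdha to Sdhd, Uqcr, Cox4 to Cox8 and Atp5 genes, without pseudogenes), which gave 84 of the 24527 gene symbols in the table. Complex I accounted for 35 of them, complex II for 4, complex III for 8, complex IV for 20 and ATP synthase for 17. Ndufa4 and its relative Ndufa4l2 were counted with complex IV.

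The samples were 12 libraries of bulk liver RNA from mice aged 39 weeks, the offspring of CF1 females and B6SJL males. There were 3 libraries in each of 4 groups: IVF females, IVF males, naturally conceived females and naturally conceived males. Poly-A RNA was sequenced, and the deposited values were whole-number read counts per gene. The comparisons below ask whether conception by IVF was accompanied by another level of these messages in the adult liver, whether that differed between the sexes, and whether the sexes differed from each other.

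Complexes I to IV form the respiratory chain of the inner mitochondrial membrane. They pass electrons from NADH and succinate to oxygen, and complexes I, III and IV pump protons. ATP synthase (complex V) uses the returning protons to make ATP. The mitochondrial genome encodes a small number of the core subunits, and all the others are nuclear genes whose products must be imported and assembled in fixed proportions. In hepatocytes this ATP pays for gluconeogenesis, urea synthesis and protein secretion.

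The promoters of these genes are known to hold binding sites for the nuclear respiratory factor NRF1, and 4 of them are shown because they stand for 4 of the 5 complexes. The windows are RefSeq promoters on GRCm38.p6. Each run is the 150 bases before the annotated start, on the gene's own strand (minus for all 4), with matches to the NRF1 motif (GCGCA and GCGC separated by 1 base of any kind, on either strand) in capitals. Ndufb4 (complex I) is at chr16:37654369-37654518, Sdhd (complex II) at chr9:50603850-50603999, Cox6a1 (complex IV) at chr5:115348959-115349108 and Atp5h (ATP synthase) at chr11:115419920-115420069.
Ndufb4: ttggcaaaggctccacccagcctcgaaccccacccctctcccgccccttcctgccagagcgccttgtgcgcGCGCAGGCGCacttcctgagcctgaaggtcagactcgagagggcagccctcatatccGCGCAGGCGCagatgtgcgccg
Sdhd: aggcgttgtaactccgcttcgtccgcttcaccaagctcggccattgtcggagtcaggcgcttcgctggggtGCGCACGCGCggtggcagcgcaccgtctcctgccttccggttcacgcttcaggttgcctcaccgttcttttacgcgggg
Cox6a1: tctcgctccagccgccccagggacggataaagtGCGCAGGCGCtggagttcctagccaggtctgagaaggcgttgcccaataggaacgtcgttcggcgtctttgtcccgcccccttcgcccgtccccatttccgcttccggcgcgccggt
Atp5h: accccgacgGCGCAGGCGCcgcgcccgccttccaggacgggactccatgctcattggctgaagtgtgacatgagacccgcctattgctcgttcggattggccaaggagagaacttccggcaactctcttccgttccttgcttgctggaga

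Of the 84 genes, 66 had a RefSeq promoter, with 71 windows of 300 bases (250 before the start and 50 after it). That motif was found in 18 of these windows (25.4%), from 17 genes. The share was 4.60% of all 32851 windows and 6.38% of the 21263 windows of protein-coding genes. A looser form, GCGCATGC, which can overlap the first motif, was in 14.1% of the member windows, 2.71% of all windows and 3.52% of the protein-coding ones. In the same order, the YY1 motif AAGATGGC was in 12.7%, 2.75% and 3.05%, and the motif TCAAGGTCA of the estrogen-related receptors in 2.82%, 0.42% and 0.33%. Its shorter core AAGGTCA, which lies inside it, was in 11.3%, 4.72% and 4.08%, and the ETS motif CCGGAAGT of GABPA in 7.04%, 3.89% and 5.15%. Of the general promoter motifs, GGGCGG was in 38.0% of the member windows, 35.7% of all windows and 46.2% of the protein-coding ones, and CCAAT in 42.3%, 37.4% and 38.2%. A match describes letters in a window, and binding was not measured.

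Library depth ran from 6826534 to 27832271 counts. The shallowest were IVF female replicate 1 with 6826534 and natural female replicate 2 with 8056230. The 84 genes together took between 0.543% and 0.843% of a library's counts. Xist and Y-linked counts matched the labelled sex in all 12 libraries. Hepatocyte markers (6 of 7 in the table) summed to between 72664 and 80755 CPM (counts scaled to library size with TMM factors) in IVF males, 85172 and 96775 in natural males, 92552 and 106360 in IVF females and 89093 and 99750 in natural females. Muscle markers summed to at most 0.579, with Ckm, Mb and Myh6 at 0.

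Of the 84 genes, 76 passed the filter on low counts. ATP synthase and complex IV were the most abundant per kilobase of transcript. The median over tested genes was 128 CPM per kb for complex IV, 112 for ATP synthase, 94.2 for complex II, 88.9 for complex III and 46.0 for complex I. Atp5b, the catalytic beta subunit of ATP synthase, was the highest of all at 473 CPM per kb. Next came Uqcrq, a small subunit of complex III, at 382, then Atp5a1 (the alpha subunit) at 316, Atp5g3 at 293 and Ndufa4 at 291.

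Within complex I, Ndufb9 of the membrane arm was highest (188 CPM per kb) and Ndufs4, an accessory subunit of the NADH-oxidising module, lowest (12.8). Sdha, the flavoprotein of succinate dehydrogenase, led complex II at 142, and Sdhc, one of its membrane anchors, was lowest at 26.8. Uqcr11 was lowest in complex III at 67.1. The lowest tested genes of the last groups were Ndufa4l2 (0.660) and Atp5s (2.41). Atp5s, also called Dmac2l, is named as a coupling factor and is not a structural subunit of the enzyme. Message levels per kilobase of complex I genes thus spanned more than 10-fold.

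**Figure D1:**
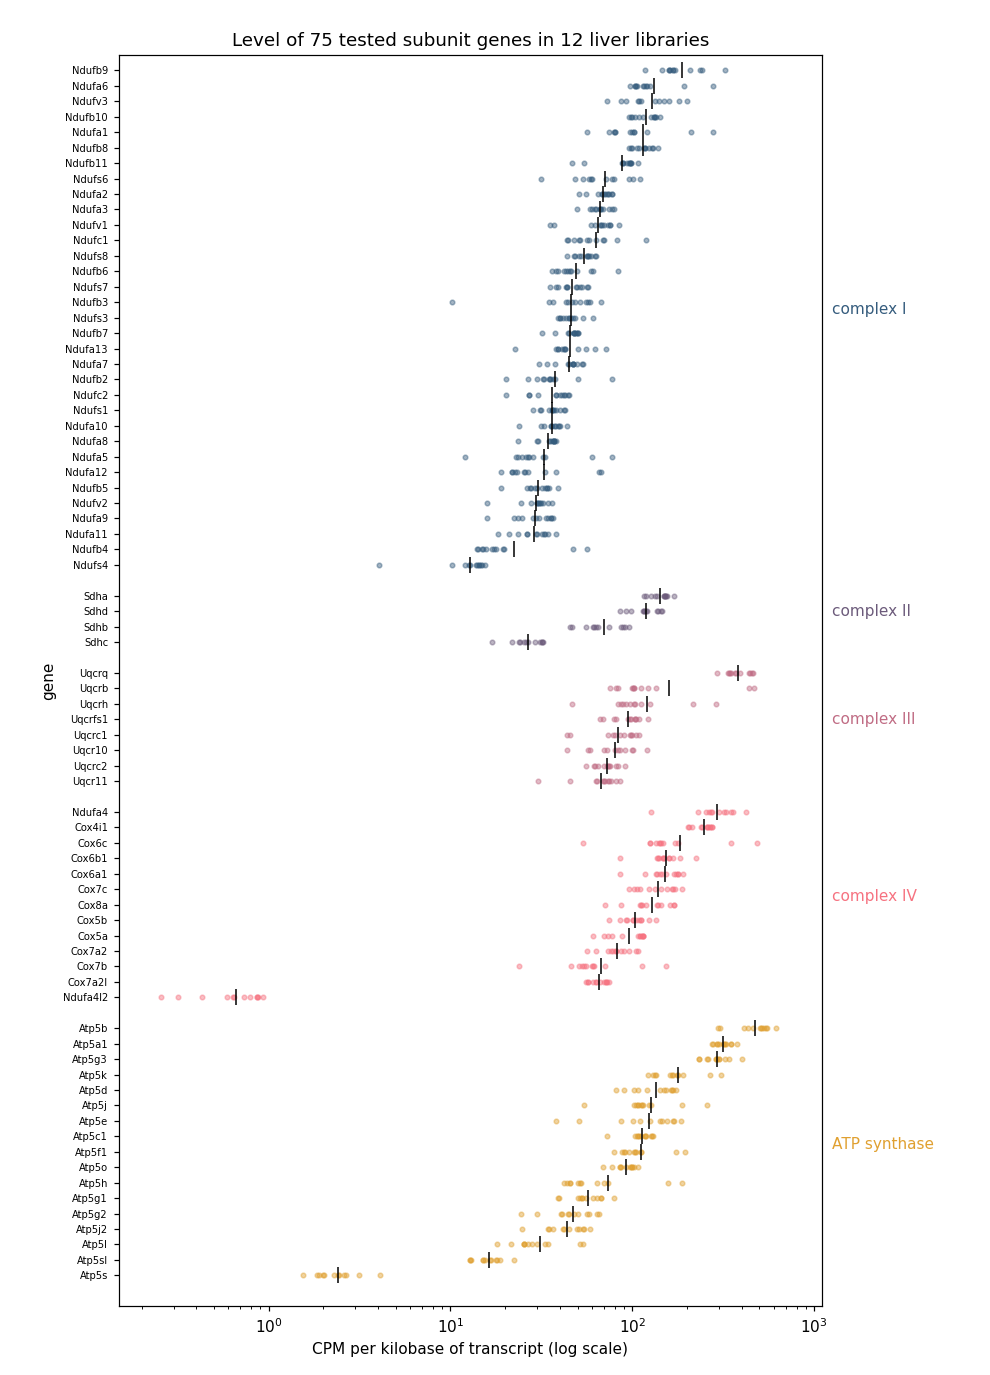
Level of 75 of the 76 tested genes, in CPM per kilobase of transcript on a log axis, grouped by complex. Each dot is 1 of the 12 libraries and the black tick is the mean. Atp5b (473) and Uqcrq (382) stand at the top, and Atp5s (2.41) and Ndufa4l2 (0.660) far below the rest.

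The isoforms known from muscle, lung, testis or hypoxia were at very low counts. Over all 12 libraries Cox4i2 had 17 counts, Cox6a2 11, Cox6b2 67, Cox7a1 65, Cox7b2 1, Cox8b 2 and Cox8c 5. Their widely expressed counterparts had between 12178 (Cox7a2) and 41981 (Cox4i1). Ndufa4l2, a hypoxia-responsive relative of Ndufa4, had 150 counts against 28827 for Ndufa4, and was the only isoform of the 8 to pass the filter. Single libraries supplied much of some totals, with 26 of the 67 Cox6b2 counts in natural female replicate 2 and 4 of the 5 Cox8c counts in IVF male replicate 2.

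Ndufs5, a subunit of complex I, was listed at 0 in every library. A count of 0 allowed up to 0.119 to 0.445 CPM, depending on depth (3 counts). Why Ndufs5 was at 0 was not tested. On either strand 0% of its exon bases overlapped exons of another gene. In the reference transcripts, 35.6% of its 50-base stretches were also found in 1 other gene, and how reads matching several genes were treated is not given in the sources used here. More widely, 38 of the 84 genes shared no such stretch with another gene and 17 shared over 25%. For those 17 the division of reads between copies is uncertain. The same holds for 23 genes that overlap exons of another gene on the opposite strand, since the strand setting is not given either. On the same strand 4 genes overlap exons of another gene, namely Atp5o, Ndufb2, Ndufb8 and Ndufb9. The overlap covers 19.7% (Ndufb8) to 31.9% (Ndufb2) of their exon bases, and the division of those reads is uncertain too.

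The c-ring of ATP synthase, the rotor that the protons turn, is encoded by Atp5g1, Atp5g2 and Atp5g3, whose mature proteins are identical. By the deposited counts, Atp5g3 had the highest level of the 3 in all groups. Its share of the summed CPM per kb was 73.6% ± 4.97 in IVF females, 76.2% ± 5.01 in natural females, 74.1% ± 2.14 in IVF males and 71.3% ± 4.82 in natural males (SD, n = 3 each). Atp5g1 supplied between 13.6% and 15.5% on average, and Atp5g2 between 9.84% and 13.2%. No pair of groups differed in any of these shares by more than the larger of their SDs. In the reference transcripts, 100% of the 50-base stretches of Atp5g2 and 56.2% of those of Atp5g1 were also found in other genes, against 0% for Atp5g3. The shares thus depend on how reads matching several genes were counted, which is not given.

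No subunit gene was called between IVF and natural females. In edgeR's quasi-likelihood test with Benjamini-Hochberg adjustment over 13204 genes, 0 of 76 had an adjusted p-value under 0.05, against 0% of all genes. At an unadjusted p under 0.05 there was 1 (against 3.7% of all genes), and DESeq2 and limma voom also called 0. The median log2 fold change of the 76 genes was -0.030, beside -0.015 for all genes, with 30 genes higher and 46 lower. It ranged from -0.13 (without natural female replicate 3) to 0.14 (without natural female replicate 2) when 1 library was left out. In 57 of 76 the 95% interval lay within a 2-fold change in either direction (75%, against 58.9% of all genes). The changes themselves were small, with a median size of 0.080 on the log2 scale, beside 0.19 over all genes. Each female group held 1 of the shallow libraries, whose deviations went together across these genes (r = 0.92, described below). The part of that in the small changes was not tested.

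The single gene with a small unadjusted p in females was Atp5s. It measured 6.09, 4.66 and 3.85 CPM in the 3 IVF females and 3.97, 2.76 and 3.01 CPM in the 3 natural females. The groups overlapped, by IVF female replicate 3 and natural female replicate 1. Its log2 fold change was 0.55 ± 0.25 (SE, unadjusted p = 0.0462, edgeR's adjusted p = 1).

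Ndufs1, the large iron-sulfur subunit through which electrons leave the NADH site of complex I, was the only one of the 76 whose female groups did not overlap (1.32%, against 7.42% of all genes). It measured 98.6, 96.6 and 108 CPM in IVF females and 93.9, 93.8 and 74.04 in natural females. The log2 fold change was 0.21 ± 0.18 (SE). Ndufs4 measured 24.3, 20.3 and 23.5 CPM in IVF females against 17.3, 25.2 and 6.84 in natural females, where replicate 3 was far below the others. Its log2 fold change of 0.48 ± 0.34 became 0.12 without that library.

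Lower values in females included Ndufs7, of the module that hands electrons to ubiquinone, and Cox7c of complex IV. Ndufs7 had 31.9 ± 1.89 CPM in IVF and 39.7 ± 5.75 in natural females (SD, n = 3). Its log2 fold change was -0.31 ± 0.20 (SE). Cox7c was at -0.31 ± 0.27, and at -0.11 without natural female replicate 3, -0.15 without IVF female replicate 3 and -0.52 without natural female replicate 1. Neither of these differences exceeded the spread between libraries by the edgeR test.

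By complex, the female medians were -0.025 for complex I, 0.012 for complex II, -0.031 for complex III, -0.045 for complex IV and -0.025 for ATP synthase. The NADH-oxidising module of complex I had a median of 0.15, with 6 of 8 genes higher, and the ubiquinone-reducing module one of -0.084, with 4 of 5 lower. The first became -0.065, with 3 of 8 higher, without natural female replicate 3. The mean deviation of its 8 genes from their means over all libraries was -0.66 in that library, against -0.12 and 0.31 in the other natural females. The module's median was 0.52 without natural female replicate 2 and 0.075 without IVF female replicate 1. That of the ubiquinone-reducing module was -0.030 without IVF female replicate 1 and -0.17 without natural female replicate 2. Neither module had a called gene.

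In males, conception by IVF was likewise followed by no called subunit gene. The count was 0 of 76, against 0.00757% of all genes in edgeR's test, with 0 at an unadjusted p under 0.05 (2.69% of all genes) and 0 by DESeq2 and limma voom. The median log2 fold change was 0.0055, beside 0.0098 over all genes, with 40 genes higher and 36 lower. The 95% interval lay within a 2-fold change for 63 of 76 (82.9%, against 61.2%). In the same comparison, 5 of 6 tested hepatocyte markers were lower, 3 without overlap of the groups. Of the 7 Kupffer cell markers, 6 were lower, 5 without overlap (8.91% of all genes) and 4 at an unadjusted p under 0.05 (2.69% of all genes). Their median log2 fold change was -0.70, and edgeR's test called 0 of either list. All 6 sinusoidal endothelium markers were also lower, 2 without overlap (8.91% of all genes), and all 5 cholangiocyte markers, 0 without overlap. Of the stellate cell markers 3 were higher and 3 lower, and of the lymphocyte markers 4 were higher and 2 lower. The part of these cells in the male comparison was not tested.

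Male groups did not overlap for 4 of the 76 genes (5.26%, against 8.91% of all genes). Atp5g1 was lower, at 36.3, 34.9 and 35.7 CPM in IVF males against 55.1, 42.1 and 46.4 in natural males. All 3 IVF males lay within 2 CPM of each other, and the natural males were more spread. The log2 fold change was -0.42 ± 0.23 (SE, unadjusted p = 0.0846, edgeR's adjusted p = 1).

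Atp5s was higher in IVF males, at 3.57, 3.64 and 3.40 CPM against 2.28, 2.95 and 2.81, a log2 fold change of 0.40 ± 0.24 (SE). The other non-overlapping genes were Ndufs4 (25.1, 26.4 and 24.3 CPM against 21.4, 23.7 and 21.7) and Ndufa4l2, with log2 fold changes of 0.18 ± 0.33 and 0.38 ± 0.45. Ndufa4l2 measured 0.687, 0.738 and 0.601 CPM against 0.548, 0.399 and 0.593. These values rest on 10, 15 and 12 counts against 12, 8 and 15, which overlap before scaling. All c-ring genes had lower means in IVF males. Atp5g2 was at -0.28 ± 0.30 and Atp5g3 at -0.19. Further named genes were Sdhd (-0.27 ± 0.22), a membrane anchor of complex II, the accessory subunit Ndufa3 (0.19 ± 0.17) and Atp5sl (0.20 ± 0.19), also called Dmac2 and known as an assembly factor of complex I.

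The IVF effect was not shown to differ between the sexes for any subunit gene. In edgeR's interaction test 0 of 76 were called, against 0% of all genes, with 0 at an unadjusted p under 0.05 (3.87% of all genes) and a smallest adjusted p of 0.9999. DESeq2 and limma voom called 0. This comparison was the least precise, with the 95% interval within a 2-fold difference for 38 of 76 genes (50%, against 32.3%). For the other 38 genes the interval reached beyond a 2-fold difference, which these libraries could not resolve. The smallest unadjusted p-values among higher male effects belonged to Ndufs7 (0.37 ± 0.28), Cox7c (0.46 ± 0.39) and Cox4i1 (0.23 ± 0.23), the last the main isoform of a nuclear complex IV subunit. On the lower side they belonged to Atp5g2 (-0.54 ± 0.43), Atp5g1 (-0.37 ± 0.32) and Ndufa7 (-0.32 ± 0.31).

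**Figure D2:**
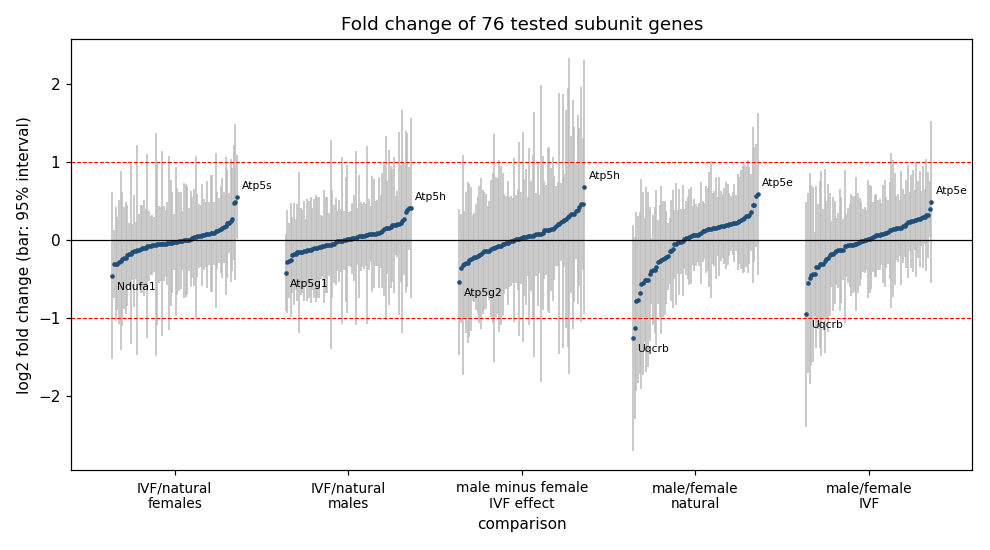
Log2 fold changes of the 76 tested genes in the 5 comparisons, ordered within each; grey bars are 95% intervals, dashed lines mark a 2-fold change, and the lowest and highest gene are named. The points lie close to 0 for IVF against natural (median size 0.080 in females and 0.10 in males), and Uqcrb has the lowest value in both sex comparisons.

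Between the sexes, 0 of 76 subunit genes were called in natural mice (1.77% of all genes) and 0 in IVF mice (2.19%). In edgeR's test 0 and 1 had an unadjusted p under 0.05, beside 14.9% of all genes in both. The smallest adjusted p-values were 0.346 (Atp5h) and 0.290 (Uqcrq). DESeq2 and limma voom called 0 in both. The median log2 difference, male over female, was 0.061 in natural and 0.011 in IVF mice, beside -0.024 and 0.0077 over all genes. The 95% interval lay within a 2-fold difference for 55 of 76 genes in natural mice (72.4%, against 49.6% of all genes) and 59 in IVF mice (77.6%, against 49.6%). These comparisons use the same libraries as the IVF comparisons.

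Uqcrq had the smallest p in IVF mice. It measured 185, 184 and 150.1 CPM in IVF males and 118, 138 and 139 CPM in IVF females, so that every male lay above every female. In natural mice it measured 180, 148 and 177 CPM in males and 159, 135 and 141 CPM in females, where the groups overlapped. The log2 difference in IVF mice was 0.39 ± 0.17 (SE, unadjusted p = 0.0363, edgeR's adjusted p = 0.290).

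Groups of males and females did not overlap for 7 of the 76 genes in IVF mice (9.21%, against 21.8% of all genes). Higher in males were Uqcrq, Cox4i1, Cox6a1, Cox7a2, Ndufa2 and Ndufb7, and lower was Atp5s. Cox4i1 measured 206, 205 and 191 CPM in males against 152, 158 and 180 in females, a log2 difference of 0.29 ± 0.16. Ndufa2, an accessory subunit of the NADH-oxidising module, was at 0.28 ± 0.16. Atp5s was at -0.44 ± 0.24. In natural mice 2 genes did not overlap (2.63%, against 20% of all genes), Ndufa2 with a higher value in males (0.20 ± 0.16) and Atp5sl with a lower one (-0.40 ± 0.19, unadjusted p = 0.0626, edgeR's adjusted p = 0.365). Ndufa2 was thus the gene whose sexes separated in both.

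The largest sex differences rested on the shallow female libraries. Uqcrb, a ubiquinone-binding subunit of complex III, measured 44.4, 248 and 65.6 CPM in natural females and 54.0, 55.0 and 40.4 in natural males. Only female replicate 2 was high. The log2 difference of -1.26 ± 0.66 became -0.14 without it. In IVF females it measured 235, 54.8 and 53.1 CPM, against 43.7, 59.7 and 72.5 in IVF males, and only female replicate 1 was high. The log2 difference of -0.96 ± 0.66 became 0.088 without that library.

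Atp5h, subunit d of the stalk that holds ATP synthase still, followed the same pattern. It measured 27.4, 118 and 45.7 CPM in natural females and 26.2, 32.1 and 28.3 in natural males, and 98.3, 32.6 and 28.3 CPM in IVF females. The log2 difference between natural males and females, -1.13 ± 0.53 (SE, unadjusted p = 0.0551), became -0.34 without natural female replicate 2. It also had the largest interaction of the 76 genes, 0.68 ± 0.74, which became -0.12 without that library. Ndufb4, of the membrane arm of complex I, went from -0.55 ± 0.53 to 0.14 in IVF mice without IVF female replicate 1. In the reference transcripts, other genes also held 43.4% of the 50-base stretches of Uqcrb, 50.5% of Atp5h and 37.0% of Ndufb4. The division of their reads between copies is thus uncertain. In natural mice, Atp5g2 was at 0.56 ± 0.30, Atp5g1 at 0.35 ± 0.23 and Ndufs4 at 0.45 ± 0.34. With 1 library left out, Atp5g2 ranged from 0.33 (without natural female replicate 2) to 0.80 (without natural female replicate 1), and Atp5g1 from 0.18 to 0.54 without the same libraries. With scaling by library size alone they were at 0.24 and 0.037. The value of Ndufs4 became 0.079 without natural female replicate 3.

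**Figure D3:**
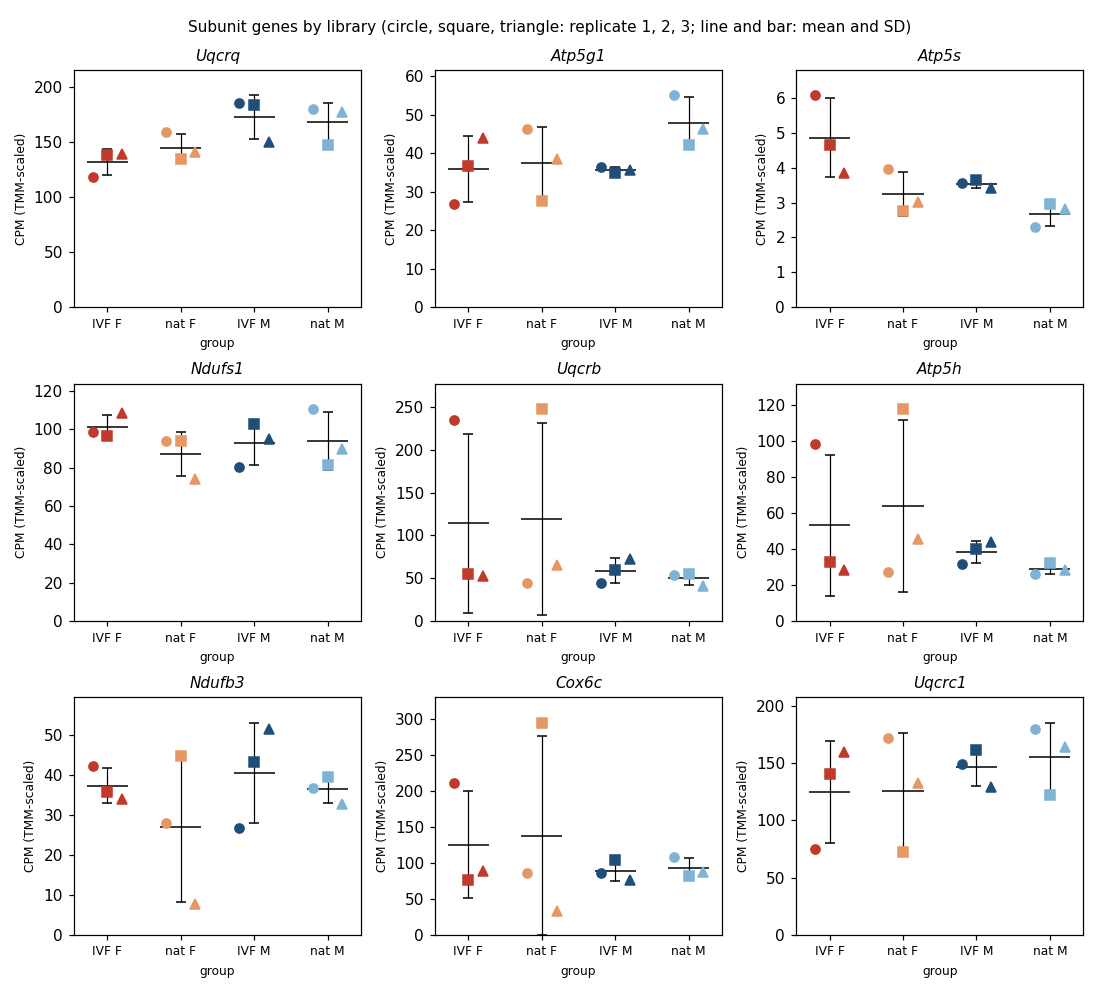
CPM of 9 genes by group and library (circle, square and triangle for replicates 1, 2 and 3; black line and bar, mean and SD, n = 3). Uqcrb, Atp5h and Cox6c are high in IVF female replicate 1 and natural female replicate 2, Uqcrc1 is low there, and Ndufb3 is low in natural female replicate 3.

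A set of 3 female libraries carried most of the variation among these genes. The deviation of each gene from its own mean over 12 libraries exceeded 1 on the log2 scale for 8 genes in IVF female replicate 1, 13 in natural female replicate 2 and 10 in natural female replicate 3, and for 0 genes in any of the other 9 libraries. The SD of the deviations over the 76 genes was 0.60, 0.66 and 0.50 in these libraries and between 0.13 and 0.25 in the others. Among all 13204 tested genes, deviations over 1 made up 16.3%, 16.3% and 6.67% in the same libraries, against 10.5%, 17.1% and 13.2% of the 76. Among 4153 genes of a like level the shares were 10.3%, 12.3% and 2.53%.

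The shallow pair deviated together. Of the 76 genes, 38 were above their mean in both and 21 below it in both, and 17 went opposite ways. Across these 76 genes the deviations correlated with r = 0.92, beside 0.60 across all 13204 genes and 0.78 across the 4153 genes of a like level. These points are genes of 2 libraries that share their low depth and enter each gene's mean, and the values are descriptions. In both shallow libraries 18 genes were above their mean by over 0.5, among them Uqcrb, Uqcrh, Cox6c, Cox7b, Ndufa1, Ndufa5, Ndufb4 and Atp5h, and 8 were below it by as much, namely Atp5b, Atp5d, Atp5e, Atp5g2, Ndufa4l2, Ndufb11, Ndufv1 and Uqcrc1. Subunits of complex I, complex III and ATP synthase therefore went in opposite directions there. Complex II had no gene in either set. The only complex IV gene in the lower set was Ndufa4l2, with 2 counts in each shallow library. Uqcrc1, a core protein of complex III, measured 74.7 and 72.1 CPM in the shallow libraries and 122 to 180 in the others, and Atp5b 568 and 583 CPM against 790 to 1186.

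Natural female replicate 3 went another way. Its mean deviation over the 76 genes was -0.42, with 59 below their mean, beside 0.014 over all genes. Ndufb3 (complex I membrane arm) was lowest, at 7.76 CPM against 26.7 to 51.3 in the other 11 libraries, a deviation of -2.05. The other 9 genes below their mean by over 1 were Atp5j, Cox6c, Cox7b, Ndufa4, Ndufa5, Ndufs4, Ndufs6, Uqcr11 and Uqcrh. Cox6c, an accessory subunit of complex IV, measured 32.5 CPM there, 295 in natural female replicate 2 and 211 in IVF female replicate 1, and between 75.6 and 109 in the other 9. The deviations of this library and of natural female replicate 2 had opposite signs for 60 of 76 genes.

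GC content, transcript length and sequence shared with other genes moved with part of this, and with deviations in other libraries too. Above the members' median GC of 51.8%, the median deviation was -0.086 in IVF female replicate 1 and 0.12 in natural female replicate 2, and below it 0.15 and 0.29. In natural female replicate 3 it was -0.32 above and -0.37 below. For genes longer than 751.5 bases it was -0.072 and 0.061, and for shorter ones 0.15 and 0.35. In natural female replicate 3 it was -0.23 for longer and -0.47 for shorter genes. The shorter genes were also lower in the other female libraries, at -0.22 against -0.036 in IVF female replicate 2, -0.077 against 0.15 in IVF female replicate 3 and -0.022 against 0.089 in natural female replicate 1. For genes that shared more of their 50-base stretches with other genes than the members' median, it was 0.13 in IVF female replicate 1, 0.29 in natural female replicate 2 and -0.42 in natural female replicate 3. For the others it was -0.062, 0.064 and -0.22. Libraries outside these 3 were split as well. By GC the median was -0.0031 above and 0.15 below in IVF female replicate 3, and 0.11 and -0.0095 in natural male replicate 3. For genes sharing more and for the others it was -0.027 and 0.13 in IVF female replicate 3. In IVF male replicate 1 it was -0.11 and 0.041. The part of these properties and of depth in the deviations was not tested.

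**Figure D4:**
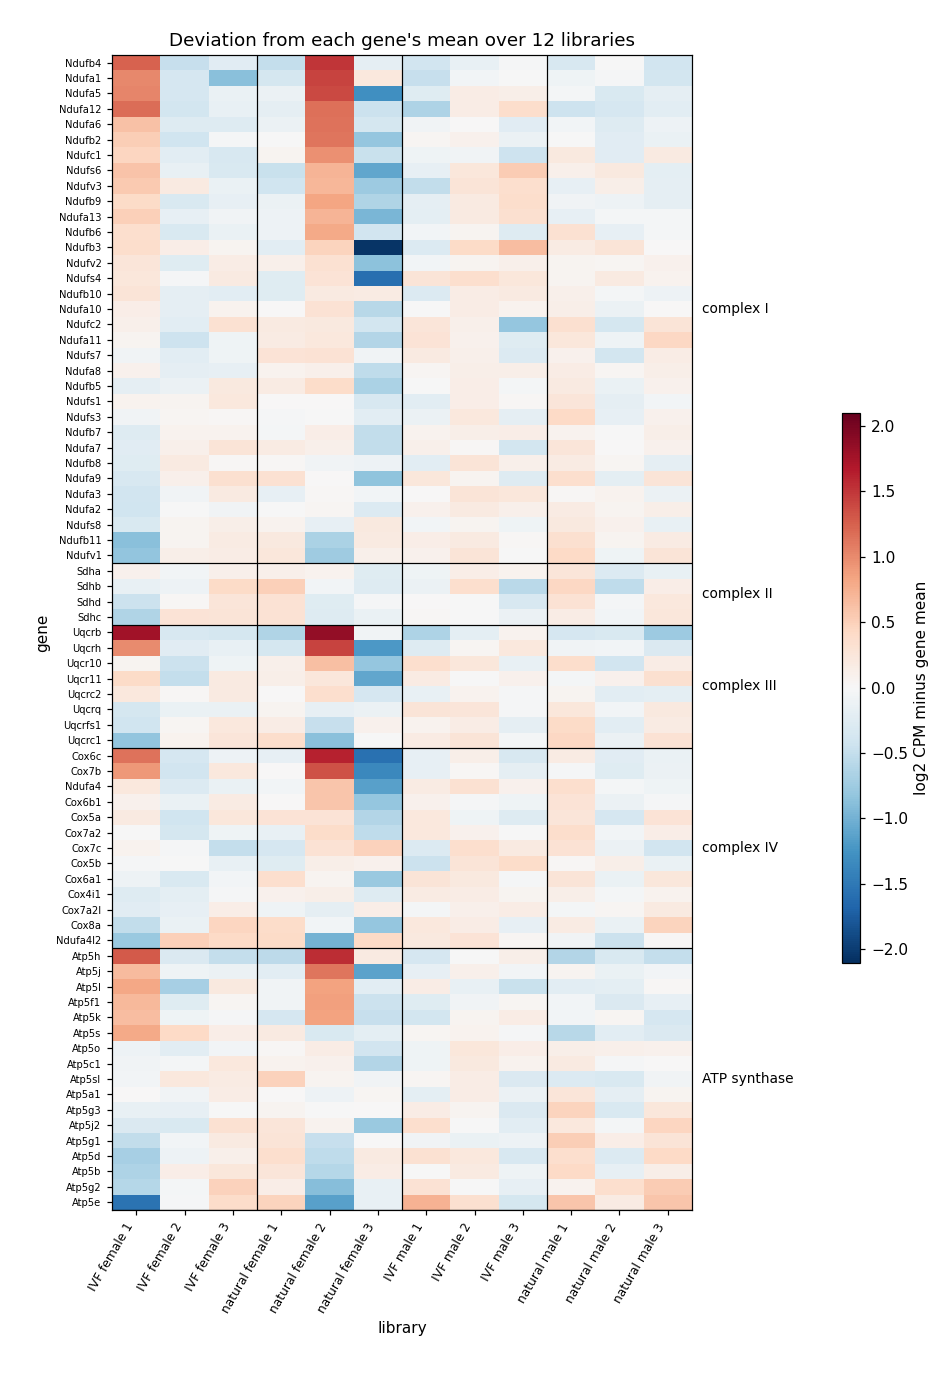
Deviation of 75 of the 76 tested genes from their means over the 12 libraries (log2 CPM, red above and blue below), grouped by complex. IVF female replicate 1 and natural female replicate 2 share a pattern of red and blue within each complex, and natural female replicate 3 is mostly blue (59 of 76 below their mean).

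The steadiest genes were found in several complexes. The within-group SD on the log2 scale was 0.14 for Cox4i1, 0.15 for Ndufa2, Uqcrq and Cox7a2l and 0.16 for Atp5a1, and the largest were 0.92 for Uqcrb and 0.90 for Cox6c. In the male groups, which hold none of the 3 libraries, the median SD was 0.18 in IVF and 0.19 in natural males. It was 0.33 in IVF and 0.53 in natural females. Genes of a like level had 0.20 and 0.18 in males and 0.30 and 0.35 in females.

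The median log2 fold change of the 16 tested genes with a match was -0.064 in females and 0.018 in males for IVF against natural, beside -0.025 and -0.017 for the 45 tested genes with a promoter and no match. Between the sexes it was 0.15 in natural and 0.027 in IVF mice, beside 0.058 and 0.048.

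Genes that build, feed or control the chain also gave no call in the edgeR test between IVF and natural livers of either sex. Called were 0 of 49 assembly factors, 0 of 19 transcriptional regulators and 0 of 20 genes of mobile carriers and other entries to the chain. In the list of nucleotide and phosphate carriers, uncoupling proteins and the ATPase inhibitor it was 0 of 9, and in the tricarboxylic acid cycle 0 of 14. It was 0 of 78 for mitochondrial ribosomal proteins. For cytosolic ribosomal proteins, listed for comparison as short abundant transcripts, it was also 0 of 78. At an unadjusted p under 0.05 in females these lists held 2, 1, 0, 0, 0, 0 and 4 genes (3.7% of all genes), and in males 0, 1, 0, 0, 0, 0 and 0 (2.69% of all genes). The genes with the smallest p of their list, most of them over 0.05, are named next, all with an edgeR adjusted p of 1. In females they were Nubpl (0.90 ± 0.34), which delivers iron-sulfur clusters to complex I, Gabpb1 (-0.51 ± 0.22), the partner of the promoter factor GABPA, Pdss1 (0.54 ± 0.33), Vdac2 (0.25 ± 0.19), Mrpl53 (-0.31 ± 0.15) and Rps29 (-1.42 ± 0.60). In males they were Cox10 (-0.23 ± 0.18), Mterf1a (0.62 ± 0.25), Pdss2 (-0.26 ± 0.19), Vdac1 (-0.19 ± 0.16), Fh1 (-0.36 ± 0.27), Mrps18b (0.19 ± 0.15) and Rpl3 (-0.58 ± 0.29).

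Between the sexes few genes of these lists were called in edgeR's test. Of the tricarboxylic acid cycle it was 1 of 14 genes, in natural and in IVF mice. Of assembly factors it was 1 of 49 and of cytosolic ribosomal proteins 1 of 78, in IVF mice only. Over all genes the share was 1.77% in natural and 2.19% in IVF mice. Idh2, the mitochondrial NADP-dependent isocitrate dehydrogenase, was lower in males, by a log2 difference of -0.88 ± 0.18 in natural mice (edgeR's adjusted p = 0.0322) and -0.83 ± 0.18 in IVF mice (adjusted p = 0.0364). Cox19, an assembly factor of complex IV, was higher in IVF males (1.14 ± 0.25, adjusted p = 0.0344) and Rpl35a of the cytosolic ribosome, a family with many near-identical copies, too (1.22 ± 0.25, adjusted p = 0.0236). With 1 library left out, the Idh2 calls were lost in 5 of 6 cases each, and those of Cox19 and Rpl35a in 6 of 6. The log2 differences then ranged from -0.99 to -0.82 for Idh2 in natural mice, -0.94 to -0.67 for Idh2 in IVF mice, 0.98 to 1.24 for Cox19 and 1.15 to 1.28 for Rpl35a. Among the remaining lists 0 genes were called between the sexes. The genes of smallest p, in natural and IVF mice in that order, were Gabpb1 (-0.86 ± 0.22) and Esrrg (-1.17 ± 0.29) among regulators. In the list of mobile carriers and other entries to the chain they were Coq7 (0.72 ± 0.32) and Coq5 (-0.39 ± 0.18). In the list of nucleotide and phosphate carriers, uncoupling proteins and the ATPase inhibitor they were Ucp2 (-0.81 ± 0.40) and Atpif1 (-1.54 ± 0.82). In the mitochondrial ribosome they were Mrpl20 (0.56 ± 0.18) and Mrps18b (0.55 ± 0.15). In these whole-liver samples, fewer cells of a type and less RNA per cell cannot be told apart. In IVF mice 2 of 7 Kupffer cell markers were called lower in males (2.19% of all genes were called). The 7 summed to 120 to 181 CPM in IVF males, 217 to 233 in natural males, 249.5 to 364 in IVF females and 242 to 325 in natural females. Their part in the differences between the groups was not tested.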

How the data were processed

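The data were 12 libraries of bulk mouse liver RNA, 3 in each of 4 groups. Per the submitters' processing notes, reads were trimmed with Trimmomatic 0.32, aligned with STAR 2.3.0e and counted with featureCounts 1.5.0 on mm10. The annotation, the strand setting and the handling of multi-mapping reads are not given in the sources used here. The authors deposited raw counts per gene symbol for all libraries together.

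Genes were filtered with filterByExpr by group (13204 of 24527 remained), scaled by TMM and tested with edgeR 4.0.16 (R 4.3.3), with 1 mean per group over all 12 libraries. In all, 5 contrasts were tested, and p-values were adjusted over all tested genes by Benjamini-Hochberg. The SE is the log2 fold change over the root of F. DESeq2 1.42.0 and limma 3.58.1 were alternatives. CPM per kb uses 1 GENCODE M21 transcript per gene. Scripts were tested on simulated data. Floors of 3 counts cover counting error only.

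The members and lists were chosen with earlier results of these data known. Named were the 3 genes of smallest p in each direction and the largest change in each contrast, the highest and lowest gene of each complex, isoforms, c-ring genes and genes that failed the filter, and for other lists the gene of smallest p. A few genes are not reported here by name or in the plots of levels and deviations. Other genes named in the library patterns were chosen after their values were seen. The sample titles carry numbers whose meaning the labels do not give. Whether the libraries of a group came from separate animals is thus not stated, and p-values measure only the spread between these samples. The other marker lists (endothelium, stellate cells, cholangiocytes, lymphocytes, erythroid cells, fat and pancreas) held 6, 6, 5, 6, 1, 1 and 1 tested genes. Between IVF and natural livers edgeR's test called 0 of them, against 0% of all genes for females and 0.00757% for males. At an unadjusted p under 0.05 in that test, 2 of 6 lymphocyte markers were higher after IVF in males (2.69% of all genes). Whatever their p, 4 of the 6 were higher and 2 lower there, with a median log2 fold change of 0.21 and a lowest of -0.82. The lymphocyte markers summed to at most 4.49 CPM in any library.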

Additional observations from a re-analysis of the deposited data

How the results depend on the processing

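No subunit gene passed the test in any of the 5 comparisons under any alternative run: 16 alternatives in each of 4 comparisons and 21 for the interaction. These were other size factors, no filter, DESeq2, limma voom, the groups compared alone, offsets for GC content and transcript length, a covariate for or removal of both shallow female libraries, and each library left out. The smallest adjusted p was 0.0793 (natural males against females, library size alone, Atp5sl). At an unadjusted p under 0.05, up to 8 genes were found between IVF and natural females (without natural female replicate 2). Between natural males and females there were up to 11 (library size alone). The share of all genes at that threshold in those runs is not given here. In the main edgeR run it was 3.7% and 14.9%, and the counts are not read as a result about the subunits.

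Scaling by library size alone moved the median of the 76 genes to 0.14 in IVF against natural males, 0.20 in the interaction and -0.24 in natural males against females, with all genes moving to 0.14, 0.23 and -0.34. The covariate for the shallow libraries moved it to 0.13 in IVF males against females (0.036 over all genes). With 1 library left out, the interaction median ranged from -0.19 (without natural female replicate 2) to 0.13. Of single genes, the covariate turned Uqcrb to 0.13 and Ndufb4 to 0.21 in IVF males against females. Leaving out 1 library, the ranges were -1.30 to 0.088 for Uqcrb and -0.85 to 0.14 for Ndufb4 there, and -0.12 to 1.43 for Atp5h in the interaction. The cause was not tested. The covariate gave 438 called genes of all 13204 in IVF males against females, beside 289, and 458 beside 234 in natural ones. No paired analysis was possible because replicate numbers follow accession order and pair no samples across groups. The titles of 1 IVF female and 1 IVF male library share the first part of their number, whose meaning the labels do not give, and 1 shared number is too few for a paired fit.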
